A study of Homo sapiens with 9 samples.

Results

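The mRNAs of heterogeneous nuclear ribonucleoproteins (hnRNPs), SR proteins and spliceosome components were followed in RNA that co-precipitated with the guidance receptors DCC and Nrp1. The genes were chosen by symbol alone, from the hnRNP, SRSF, TRA2, ARGLU1, SRRM, SF3A, SF3B, SF1, U2AF, SNRNP, SNRP and PRPF names in the count files. This gave 81 of the 42785 listed genes, after 4 hnRNP pseudogenes had been left out. By role, 22 encode hnRNPs, 17 encode SR and SR-related proteins, 11 encode U2 snRNP subunits and factors of the 3′ splice site, 18 encode Sm and other snRNP proteins, and 13 encode PRPF proteins. Roles were assigned from the symbols, so all SNRP names, with the U2 proteins SNRPA1 and SNRPB2 among them, stand in the Sm class.

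All 9 libraries came from SH-SY5Y cells, a line grown from a human neuroblastoma, and the study asked which mRNAs are bound by each receptor. RNA was taken after pulldown with a mouse antibody to DCC, the receptor of Netrin-1 (DCC-IP, 3 libraries), after pulldown with a rabbit antibody to Nrp1, the receptor of Sema3A (Nrp1-IP, 3 libraries), or from the lysate without pulldown (Input, 3 libraries). The cells were cultured in high glucose medium with serum, and the labels name no treatment or genetic change in any group. The lysate was spun to clear unlysed cells and nuclei before the pulldown, and the cDNA was amplified by a PCR method made for single cells. The 2 antibodies come from different species, no library from a control antibody was analysed here, and the labels do not say whether the libraries of a group came from separate cultures. The study's methods describe its experiments in general as run on independent biological replicates, without naming these libraries, so p-values measure the spread between these libraries, which may be partly technical.

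In the nucleus, hnRNPs coat the growing transcript, and SR proteins bind exonic enhancers and recruit the splicing machinery. The snRNPs, most of them built on a ring of Sm proteins, pair with the splice sites. PRPF proteins, some of them parts of snRNPs, act as the intron is cut out. Many hnRNPs and SR proteins shuttle to the cytoplasm, where they take part in export, transport, stability and translation of mRNA, and in neurons some hnRNPs travel with RNA granules along the axon. Several SR and hnRNP genes tune their own transcripts through poison exons or retained introns. What was measured here is the mRNA that encodes each protein, not the protein and not the transcripts it binds.

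The libraries held 8838296 to 11055895 gene counts each, 29.2% to 31.3% of their reads, and 3 counts, taken as the floor, correspond to 0.271 to 0.339 CPM (counts scaled to the library size). DCC-IP was taken up to a large degree by MAP1B, a microtubule-associated protein of axons, which held 49.6%, 52.1% and 40.3% of the counts there and 1.58% to 2.44% in the other libraries. DCC mRNA had 0 counts in all 9 libraries. NRP1 mRNA had 198, 320 and 234 counts in Input, 0, 26 and 23 in DCC-IP and 55, 83 and 36 in Nrp1-IP. Of the markers of sympathetic neuroblasts, ISL1 ranged from 1833 to 35114 counts and GATA3 from 31 to 287, while TH, the enzyme that starts catecholamine synthesis, was at 0 throughout; the leukocyte markers PTPRC, CD3E and CD14 were also at 0. The nuclear RNA MALAT1 had 1685 counts in DCC-IP replicate 3 and at most 79 in the other 8 libraries, NEAT1 was at 0, and KCNQ1OT1 had 311, 271 and 174 counts in Input, 1229, 1523 and 1628 in DCC-IP and 567, 953 and 438 in Nrp1-IP. The part of these nuclear RNAs in the results below was not tested.

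Splicing factor mRNAs made up a small share of each library, and that share was highest in Input. They took 1.93%, 2.45% and 2.22% of the counts in Input, 1.04%, 1.16% and 1.48% in DCC-IP, and 0.983%, 1.004% and 0.986% in Nrp1-IP. The groups did not overlap on this scale. With MAP1B taken out of the library totals, the share in DCC-IP was 2.06%, 2.43% and 2.48%, which overlaps with the 1.98%, 2.51% and 2.26% of Input, whereas Nrp1-IP stayed between 1.001% and 1.03%. In bulk RNA of this kind, fewer copies of an mRNA bound to a receptor and a larger share taken by other mRNAs cannot be told apart.

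By class, the shares followed the most abundant gene of each, HNRNPH1 and SRSF6. The hnRNP mRNAs took 0.977%, 1.24% and 1.15% of the counts in Input, 0.658%, 0.639% and 0.899% in DCC-IP and 0.217%, 0.313% and 0.232% in Nrp1-IP. The SR and SR-related mRNAs took 0.944%, 1.19% and 1.06% in Input, 0.363%, 0.499% and 0.555% in DCC-IP and 0.727%, 0.660% and 0.719% in Nrp1-IP. Between the pulldowns, the hnRNP share was higher in every DCC-IP library and the SR share in every Nrp1-IP library. With MAP1B taken out of the totals, the hnRNP share of DCC-IP was 1.31%, 1.33% and 1.51%, above the 0.999% to 1.27% of Input as well as the 0.222% to 0.321% of Nrp1-IP. The SR share of DCC-IP, at 0.721%, 1.04% and 0.930%, then overlapped with both Nrp1-IP (0.675% to 0.745%) and Input (0.965% to 1.22%). These shares are set by few genes. HNRNPH1, SRSF6, TRA2A and SRSF3 together held 84.7% to 97.7% of the counts on all 81 genes, depending on the library.

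**Figure D1:**
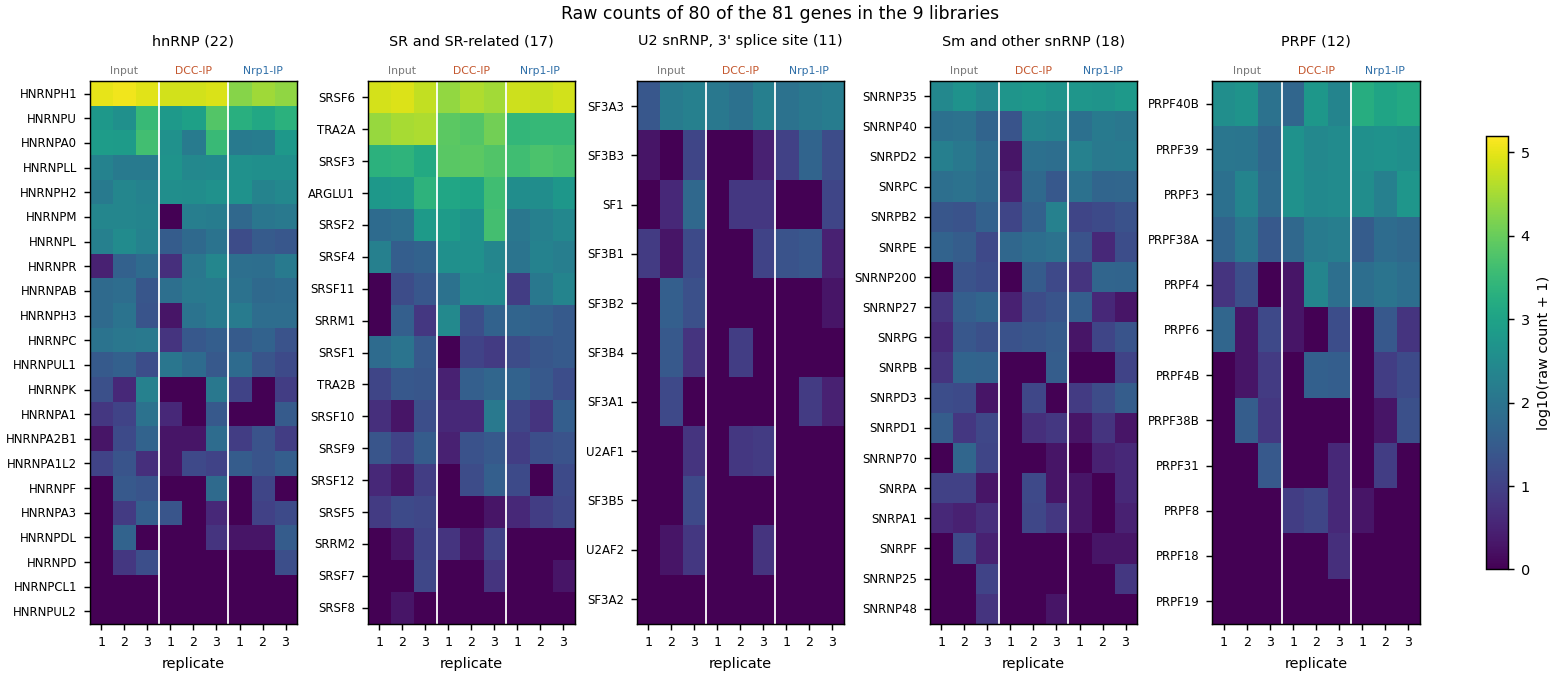
Raw counts of 80 of the 81 genes (rows, grouped by role and ordered by total count) in the 9 libraries (columns, replicates 1 to 3 of Input, DCC-IP and Nrp1-IP), coloured by log10(raw count + 1). HNRNPH1 and SRSF6 stand out in every library, and most U2 snRNP genes are at or near 0.

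Most of the other genes were sparse. At the depth of these libraries, 4 of the 81 genes had 0 counts throughout (HNRNPCL1, HNRNPUL2, PRPF19 and SF3A2), 5 never passed 3 counts, 45 were at 0 in at least 1 library, and only 23 passed 3 counts in every library. The number of genes at 0 was 30, 13 and 10 in Input replicates 1 to 3, 37, 28 and 14 in those of DCC-IP, and 28, 24 and 15 in those of Nrp1-IP. Libraries numbered 3 thus had the fewest zeros in each group. Genes over 3 counts in at least 1 library of a group were assigned to the replicate with their highest CPM after TMM scaling. In DCC-IP, 15, 19 and 30 of 64 were highest in replicates 1, 2 and 3, and in Input 10, 31 and 33 of 74. In Nrp1-IP the numbers were 19, 22 and 21 of 62, where replicate 3 did not stand out. The results are therefore also given without the libraries numbered 3 where that changes a call.

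The first bases are shown for the called genes that had an entry and for SRSF3, another abundant SR gene, because an mRNA beginning with C and a pyrimidine run (a 5′TOP start) is a known handle for translational control. The windows below come from RefSeq on GRCh38.p14, a newer build than the hg19 alignment, and run from 15 bases before the annotated start (lower case) through the first 15 transcribed bases (capitals), on the strand of the gene. TRA2A is named only.
HNRNPH1, chr5:179634770-179634799, minus strand: gccacgtacaacggcAGTCCCGGTTCCCCG
SRSF6, chr20:43457881-43457910, plus strand: gcgcgcgcgcgcgccATTGTGTGGCTGGAC
ARGLU1, chr13:106568123-106568152, minus strand: gcggccggtgcagccGCAGCTGCCATCTTA
HNRNPL, chr19:38852333-38852362, minus strand: ctcccaaaacttcccAGTGTCTGCTCTTTT
SRSF3, chr6:36594347-36594376, plus strand: ggagaaggcggtggtCCGCCATTTCGTGGA
None of the 5 windows begins its transcribed part with C followed by 4 bases that are each C or T, read on the gene's strand at the annotated start only. Among the 71 genes of the set with an entry, 4 had such a start (5.63%), beside 1104 of all 27305 promoters in the table (4.04%). A single annotated start need not be the start used in these cells.

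Of the 81 genes, 5 were called (adjusted p under 0.05 by the quasi-likelihood test of edgeR) in at least 1 comparison, all of them lower: 3 between the receptors, where 3.65% of all genes tested were called, 2 in DCC-IP against Input (4.98% of all genes) and 3 in Nrp1-IP against Input (4.97%). They belong to the hnRNP and SR classes and are described first within each role. Leaving out 1 library lowered most totals over all genes too. Between the receptors the total went from 235 to between 74 and 346. In DCC-IP against Input it went from 310 to between 0 and 250, and in Nrp1-IP against Input from 323 to between 0 and 441. A call lost in such a fit is to be read beside these totals.

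HNRNPH1, an RNA-binding protein that recognises G-rich sequences, was lower in Nrp1-IP than in DCC-IP. It had 101871, 122004 and 92438 counts in Input, 70361, 68336 and 81747 in DCC-IP and 17628, 29004 and 21413 in Nrp1-IP. The 3 groups did not overlap, with Input highest and Nrp1-IP lowest. On the TMM-scaled CPM scale, the level was 13100 ± 1466 in Input, 6359 ± 1386 in DCC-IP and 1976 ± 603 in Nrp1-IP (mean ± SD, n = 3). TMM is meant to adjust for library composition, but its factors were 0.803, 1.13 and 1.39 in DCC-IP and 0.726, 0.834 and 0.900 in Input. This scale thus does not take the share of MAP1B out of DCC-IP. With MAP1B out of the totals, the hnRNP share, which followed HNRNPH1, was higher in DCC-IP than in Input. HNRNPH1 fell by 1.82 on the log2 scale in Nrp1-IP against DCC-IP (SE 0.31, adjusted p = 0.0131 by the quasi-likelihood test of edgeR, adjusted over all genes tested) and by 2.64 against Input (SE 0.28, adjusted p = 0.0063 in edgeR).

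Against Input, HNRNPH1 in DCC-IP did not pass the test, its log2 fold change being −0.94 (SE 0.23, adjusted p = 0.0558 in edgeR). It passed with the replicate number as a block (log2 fold change −0.94, adjusted p = 0.0129 in edgeR), a pairing taken from these same data. It also passed when Input replicate 3 (0.0475) or all libraries numbered 3 (0.0381) were dropped, and in a fit of all 9 libraries (0.0405). Without DCC-IP replicate 2 the log2 fold change was −0.50 (adjusted p = 0.681 in edgeR), without DCC-IP replicate 3 it was −0.51 (0.469), and with MAP1B removed −0.64 (0.318). Leaving out 1 library at a time, the call between the receptors was lost when Nrp1-IP replicate 1 (adjusted p = 0.235 in edgeR) or replicate 3 (0.0817) was dropped. The call of Nrp1-IP against Input was lost without the same libraries (adjusted p = 0.0995 and 0.0648 in edgeR). With the libraries numbered 3 left out, no member of the set was called between the receptors, where 31 genes were called in all.

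HNRNPL, which binds CA-rich sequences, was lower in Nrp1-IP than in Input. It had 179, 323 and 200 counts in Input, 31, 59 and 95 in DCC-IP and 15, 30 and 25 in Nrp1-IP. The 3 groups did not overlap, in the same order as for HNRNPH1. HNRNPL fell by 3.73 on the log2 scale in Nrp1-IP against Input (SE 0.51, adjusted p = 0.0128 in edgeR), from 28.9 ± 8.38 to 2.01 ± 0.69 CPM (mean ± SD, n = 3). That call was lost without Nrp1-IP replicate 1, 2 or 3 (adjusted p = 0.113, 0.117 and 0.091 in edgeR) and kept without any 1 Input library. The fits that lost it called 0, 7 and 7 genes in all, and the log2 fold changes of HNRNPL there were −3.53, −4.01 and −3.68. In DCC-IP against Input the log2 fold change was −2.37 (SE 0.78, adjusted p = 0.112 in edgeR), which missed the threshold.

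**Figure D2:**
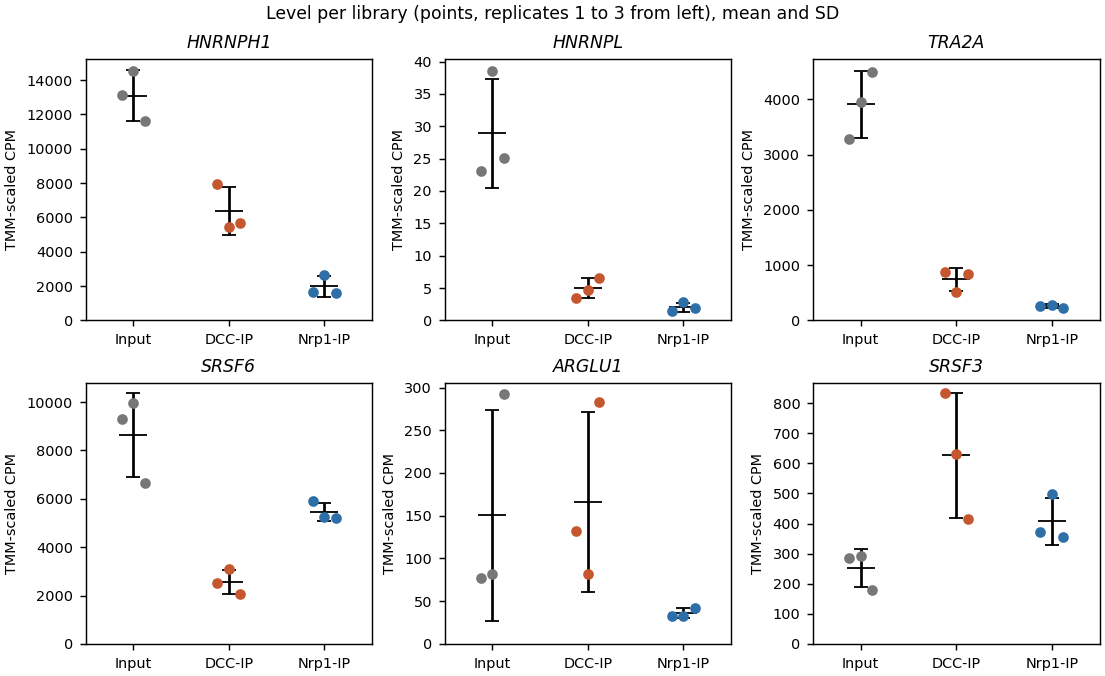
TMM-scaled CPM of 6 genes in each library of Input, DCC-IP and Nrp1-IP (points, replicates 1 to 3 from left to right), with the mean (wide bar) and SD (capped line) of 3 libraries. HNRNPH1 and TRA2A descend from Input through DCC-IP to Nrp1-IP without overlap, SRSF6 is lowest in DCC-IP, and the ARGLU1 values of DCC-IP and Input are spread by replicate 3.

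The remaining abundant hnRNP mRNAs were uneven between replicates. HNRNPU, a scaffold-attachment factor, had 593, 413 and 3166 counts in Input, 616, 900 and 6331 in DCC-IP and 1916, 1290 and 2108 in Nrp1-IP, and passed the test in no comparison (smallest adjusted p = 0.817 in edgeR). HNRNPA0, which binds AU-rich elements, had 747, 711 and 4251 counts in Input, 420, 145 and 3323 in DCC-IP and 134, 150 and 601 in Nrp1-IP. In DCC-IP and Input, replicate 3 of both genes was several times the other replicates. For Nrp1-IP over Input, HNRNPA0 had a log2 fold change of −3.31 (SE 0.92, adjusted p = 0.0841 in edgeR) and was called once the libraries numbered 3 were left out. Between the receptors its log2 fold change was −2.12 (SE 0.98, adjusted p = 0.304 in edgeR), and 0.02 without DCC-IP replicate 3.

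HNRNPA2B1, a granule protein that reads trafficking signals in mRNA, was near the floor as an mRNA. It had 1, 14 and 45 counts in Input, 1, 1 and 67 in DCC-IP and 8, 20 and 8 in Nrp1-IP, so that its values overlapped between all groups and it passed the low-count filter only in the comparisons with Input. HNRNPC, which binds uridine tracts, had 95, 113 and 126 counts in Input, 5, 26 and 34 in DCC-IP and 30, 42 and 20 in Nrp1-IP. Both pulldowns lay below Input, with log2 fold changes of −2.82 in DCC-IP (SE 1.03, adjusted p = 0.147 in edgeR) and −2.27 in Nrp1-IP (SE 0.56, adjusted p = 0.0623 in edgeR), and neither passed. HNRNPK, a reader of C-rich sequences, had 18, 3 and 191 counts in Input, 0, 0 and 122 in DCC-IP and 10, 0 and 8 in Nrp1-IP, and Nrp1-IP against Input had a log2 fold change of −4.09 (SE 1.69, adjusted p = 0.211 in edgeR). Replicate 3 held most counts of HNRNPK in DCC-IP and Input.

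TRA2A, an SR-like activator that binds GAA-rich enhancers, was the only gene of the set called in all 3 comparisons. It had 25444, 33134 and 35741 counts in Input, 7707, 6349 and 12187 in DCC-IP and 2828, 3093 and 3069 in Nrp1-IP. The groups did not overlap, and the mean level was 3908 ± 606 CPM in Input, 741 ± 202 in DCC-IP and 260 ± 27.5 in Nrp1-IP (SD, n = 3). TRA2A fell by 3.83 on the log2 scale in Nrp1-IP against Input (SE 0.27, adjusted p = 0.00227 in edgeR), by 2.28 in DCC-IP against Input (SE 0.33, adjusted p = 0.00884 in edgeR) and by 1.64 in Nrp1-IP against DCC-IP (SE 0.32, adjusted p = 0.0243 in edgeR). Its partner TRA2B, named here after its values were seen, had 11, 26 and 24 counts in Input, 2, 37 and 50 in DCC-IP and 42, 27 and 16 in Nrp1-IP, and the groups overlapped.

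The calls on TRA2A differed in how many fits with 1 library left out kept them. Against Input, the Nrp1-IP call held in 5 of 6 such fits and was lost without Nrp1-IP replicate 1 (adjusted p = 0.0586 in edgeR). In that fit the log2 fold change of TRA2A was −3.845, and 0 genes were called in all. The DCC-IP call held without Input replicate 2 (adjusted p = 0.038 in edgeR) or Input replicate 3 (0.008) and was lost without DCC-IP replicate 1, 2 or 3 or Input replicate 1, where it lay between 0.0562 and 0.152. Between the receptors it held only without DCC-IP replicate 2 (adjusted p = 0.0408 in edgeR) and was lost without each of the other 5 libraries, with values from 0.0641 to 0.328, and with library size as the only scaling it was 0.0506. The direction was the same in all of these fits.

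SRSF6, an SR protein that binds purine-rich enhancers and regulates the tau transcript, took another course than HNRNPH1 and TRA2A. It had 72122, 83462 and 52976 counts in Input, 22254, 38663 and 30022 in DCC-IP and 63111, 56904 and 69493 in Nrp1-IP. DCC-IP lay below all other libraries, and Nrp1-IP overlapped with Input in counts but not in CPM. Neither scale takes out the share of MAP1B in DCC-IP. With MAP1B out of the totals, the SR share of DCC-IP overlapped with both Nrp1-IP and Input, as given above. The mean level was 8638 ± 1745 CPM in Input, 2562 ± 511 in DCC-IP and 5452 ± 389 in Nrp1-IP (SD, n = 3). SRSF6 fell by 1.62 on the log2 scale in DCC-IP against Input (SE 0.30, adjusted p = 0.0223 in edgeR). The call held without Input replicate 3 (adjusted p = 0.00903 in edgeR) and was lost without DCC-IP replicate 1, 2 or 3 or Input replicate 1 or 2, where it lay between 0.0969 and 0.192, and with no low-count filter (0.0818).

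Between the receptors, SRSF6 had a log2 fold change of 0.91 (SE 0.29, adjusted p = 0.140 in edgeR) and did not pass. With MAP1B removed from all libraries it was called higher in Nrp1-IP (adjusted p = 0.0293 in edgeR), as it was with library size only (0.0439) or no filter (0.035). The same removal ended both DCC-IP calls against Input, with an adjusted p of 0.0789 for SRSF6 and 0.0542 for TRA2A in edgeR, while the calls over all genes in that comparison went from 310 to 73. In Nrp1-IP against Input the log2 fold change of SRSF6 was −0.57 (SE 0.22, adjusted p = 0.181 in edgeR), and it passed only when Input replicate 3 was dropped.

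SRSF3, an SR protein that also adapts mRNA for export, had more counts in the pulldown libraries than in Input. It had 2221, 2460 and 1438 counts in Input, 7365, 7896 and 6020 in DCC-IP and 3971, 5396 and 4727 in Nrp1-IP. The groups did not overlap in counts, in the order DCC-IP, Nrp1-IP, Input, and the mean levels were 627 ± 208, 408 ± 77.8 and 254 ± 63.1 CPM (SD, n = 3), with an overlap of the 2 pulldowns on the CPM scale. In DCC-IP against Input the log2 fold change was 1.39 (SE 0.38, adjusted p = 0.0702 in edgeR), and with the replicate block it passed, at 1.41 (adjusted p = 0.00795 in edgeR). It did not pass in Nrp1-IP against Input (log2 fold change 0.78, SE 0.30, adjusted p = 0.186 in edgeR) or between the receptors (−0.77, SE 0.36, adjusted p = 0.310 in edgeR).

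ARGLU1, an arginine- and glutamate-rich splicing cofactor, was lower in Nrp1-IP than in DCC-IP. It had 594, 686 and 2327 counts in Input, 1171, 1025 and 4101 in DCC-IP and 347, 360 and 568 in Nrp1-IP. Nrp1-IP lay below all other libraries, and replicate 3 was the highest of each group. ARGLU1 fell by 2.33 on the log2 scale in Nrp1-IP against DCC-IP (SE 0.52, adjusted p = 0.0433 in edgeR), from 166 ± 105 to 36.1 ± 5.69 CPM (mean ± SD, n = 3). The call held without DCC-IP replicate 2 (adjusted p = 0.0401 in edgeR) and was lost without each of the other 5 libraries, at 0.0846 to 0.363, and without DCC-IP replicate 3 the log2 fold change was −1.32. It was also lost with RLE scaling (adjusted p = 0.0661 in edgeR), library size only (0.106), MAP1B removed (0.0818) or all 9 libraries fitted together (0.0935). Against Input, Nrp1-IP had a log2 fold change of −2.03 (SE 0.61, adjusted p = 0.102 in edgeR).

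SRSF2, an SR protein of exonic enhancers, had 65, 77 and 670 counts in Input, 699, 450 and 4378 in DCC-IP and 113, 179 and 258 in Nrp1-IP. Every DCC-IP library was above every Nrp1-IP library, and replicate 3 of DCC-IP and of Input was far above the other replicates. The log2 fold change between the receptors was −3.28 (SE 0.77, adjusted p = 0.0520 in edgeR), just outside the threshold, and passed when DCC-IP replicate 2 was dropped. Without DCC-IP replicate 3 it was −1.61 (adjusted p = 0.156 in edgeR). In DCC-IP against Input it was 2.26 (SE 1.14, adjusted p = 0.293 in edgeR), and 2.47 with the replicate block, which passed (adjusted p = 0.00893 in edgeR). SRSF1, the SR protein first known as ASF/SF2, had 66, 99 and 28 counts in Input, 0, 10 and 7 in DCC-IP and 15, 24 and 29 in Nrp1-IP, with log2 fold changes against Input of −3.92 in DCC-IP (SE 1.53, adjusted p = 0.174 in edgeR) and −1.91 in Nrp1-IP (SE 0.65, adjusted p = 0.139 in edgeR).

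Factors of the U2 snRNP and the 3′ splice site, as classed here without the SNRP names, left little signal. SF3A3, a subunit of the SF3a complex, was the only one of the 11 with counts over 3 in every library, at 25, 145 and 181 in Input, 118, 86 and 172 in DCC-IP and 90, 121 and 150 in Nrp1-IP, and its groups overlapped. SF3B1, the subunit of SF3b that grips the branch site, had 7, 1 and 14 counts in Input, 0, 0 and 10 in DCC-IP and 20, 25 and 2 in Nrp1-IP. SF3B3, a scaffold of SF3b, had 1, 0 and 11 counts in Input, 0, 0 and 2 in DCC-IP and 9, 47 and 15 in Nrp1-IP. The pulldowns did not overlap for SF3B3, which did not pass the low-count filter between them. SF1, which recognises the branch point before U2 binds, had 55 counts in Input replicate 3 and at most 11 in the others. None of the 11 was called in any comparison, and 2, 1 and 3 of them were tested between the receptors, in DCC-IP against Input and in Nrp1-IP against Input.

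Sm and other snRNP mRNAs were detected at low counts and none of the 18 was called. SNRNP35, a protein of the minor U11/U12 spliceosome, carried the most counts of the class, with 267, 447 and 266 counts in Input, 515, 594 and 464 in DCC-IP and 540, 481 and 611 in Nrp1-IP. SNRNP40, a WD-repeat protein of the U5 snRNP, had 83, 92 and 46 counts in Input, 21, 229 and 202 in DCC-IP and 82, 135 and 115 in Nrp1-IP. SNRPD2, a member of the Sm ring, had 177, 120 and 71 counts in Input, 1, 83 and 73 in DCC-IP and 196, 123 and 133 in Nrp1-IP. For SNRNP40 and SNRPD2, replicate 1 of DCC-IP was far below its other replicates. SNRPE, also of the Sm ring, had 53, 73 and 91 counts in DCC-IP and 20, 3 and 16 in Nrp1-IP, which did not overlap (log2 fold change −2.59, SE 1.12, adjusted p = 0.273 in edgeR). SNRPB, another Sm protein, had 0 counts in both of replicates 1 and 2 of each pulldown and 33 and 10 in replicate 3 of DCC-IP and Nrp1-IP.

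None of the 13 PRPF mRNAs was called in any comparison, but other settings called some of them higher, as given below. Against Input, 5 of 7 tested in DCC-IP and 4 of 6 in Nrp1-IP had a log2 fold change above 0 under TMM scaling. The medians over all genes tested were 0.16 and 0.06 there. PRPF40B, a U1-associated factor, had 363, 478 and 92 counts in Input, 51, 572 and 221 in DCC-IP and 1774, 1109 and 1417 in Nrp1-IP. Every Nrp1-IP library was above all others, with log2 fold changes of 2.22 against DCC-IP (SE 0.77, adjusted p = 0.171 in edgeR) and 1.82 against Input (SE 0.57, adjusted p = 0.108 in edgeR). Against DCC-IP it passed when DCC-IP replicate 2 was dropped (adjusted p = 0.0342 in edgeR), with no filter (0.00891 in edgeR) and in DESeq2 (0.0154). Against Input it passed with no filter, in DESeq2 and with the replicate block (adjusted p = 0.0281 in edgeR), which was not read as a pairing there. PRPF39, another U1-associated factor, had 110, 104 and 53 counts in Input, 438, 269 and 317 in DCC-IP and 415, 447 and 381 in Nrp1-IP, so that both pulldowns lay above Input. Its log2 fold changes against Input were 1.54 in DCC-IP (SE 0.71, adjusted p = 0.248 in edgeR) and 1.80 in Nrp1-IP (SE 0.45, adjusted p = 0.0635 in edgeR). With a minimum of 10 counts in every library, PRPF39 passed in both. In Nrp1-IP it also passed with library size only, in DESeq2 and with the replicate block (adjusted p = 0.0336 in edgeR).

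PRPF3, a protein of the U4/U6 snRNP, had 81, 226 and 63 counts in Input, 428, 296 and 322 in DCC-IP and 348, 186 and 531 in Nrp1-IP, and the log2 fold change was 1.12 for Nrp1-IP over Input (SE 0.56, adjusted p = 0.293 in edgeR). PRPF4, its partner in the U4/U6 snRNP, had 5, 17 and 0 counts in Input, 1, 227 and 77 in DCC-IP and 75, 100 and 75 in Nrp1-IP (Nrp1-IP against Input 3.18, SE 1.14, adjusted p = 0.153 in edgeR). DESeq2 called PRPF4 higher in Nrp1-IP than in Input.

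**Figure D3:**
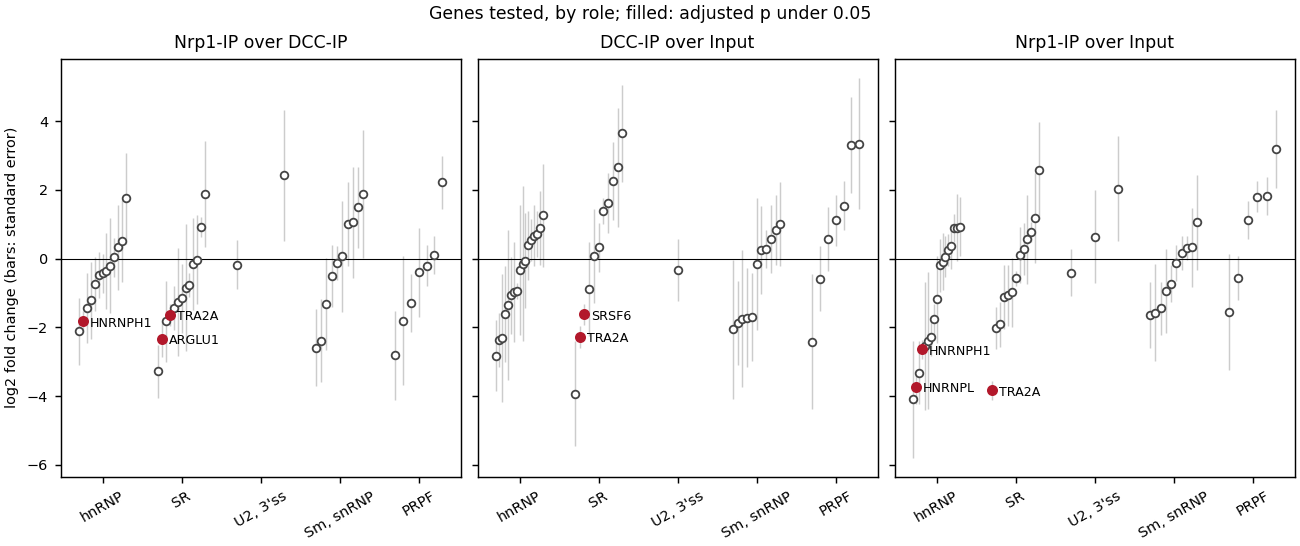
Log2 fold change of each gene of the set that was tested (circles, bars 1 SE), by role, from left to right for Nrp1-IP over DCC-IP and for each pulldown, DCC-IP first, over Input. Filled circles carry an adjusted p under 0.05 in edgeR's quasi-likelihood test, and all 8 of them are below 0.

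Counted over the set, calls were few and in 1 direction. Between the receptors, 45 of the 81 genes passed the low-count filter, of which 3 were lower in Nrp1-IP (6.67% of those tested) and 0 were higher, beside 1.09% lower and 2.56% higher, 3.65% in all, of the 6439 genes tested. By role, the 3 were 1 of 13 hnRNP and 2 of 13 SR and SR-related genes. At an unadjusted p under 0.05, 5 were lower and 2 higher (9.49% and 7.87% of all genes), and DESeq2 called 4 lower and 1 higher, beside 4.61% lower and 6.34% higher of all genes. The median log2 fold change was −0.43 over these 45 genes and −0.27 over all genes tested. In the SR class 11 of 13 log2 fold changes were below 0, with a median of −1.16, and SRSF6 and SRSF1 were the 2 above. The share of all genes below 0 was not computed. Leaving out 1 library moved the count of lower calls to 0 (Nrp1-IP replicate 1 or 3), 1 (DCC-IP replicate 1 or 3, or Nrp1-IP replicate 2) or 4 (DCC-IP replicate 2), and the median of the set to 0.05 without DCC-IP replicate 3.

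In DCC-IP against Input, 47 of the 81 genes were tested, of which 2 were lower in DCC-IP (4.26%) and 0 higher, beside 3.52% lower and 1.46% higher, 4.98% in all, of the 6223 genes tested. This is a share near the background. At an unadjusted p under 0.05, 6 were lower and 3 higher (11.1% and 10.8% of all genes), DESeq2 called 5 lower and 1 higher (8.42% and 8.15% of all genes), and the replicate block 3 lower and 2 higher (7.67% and 3.82%). The median was −0.06, beside 0.16 over all genes, and its sign was not stable. It was 0.34 with library size as the only scaling, 0.07 with MAP1B removed, −0.69 with no filter, and −0.45 to 0.27 with 1 library left out. Over the 23 genes with at least 10 counts in every library it was 0.83, beside 0.43 over all genes kept. Leaving out 1 library moved the count of lower calls to 0 (DCC-IP replicate 1, 2 or 3, or Input replicate 1), 1 (Input replicate 2) or 3 (Input replicate 3).

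In Nrp1-IP against Input, 49 of the 81 genes were tested, of which 3 were lower in Nrp1-IP (6.12%) and 0 higher, beside 3.03% lower and 1.94% higher, 4.97% in all, of the 6501 genes tested. Of 17 hnRNP genes tested 2 were lower, and of 13 SR and SR-related genes 1. At an unadjusted p under 0.05, 10 were lower and 4 higher (10.1% and 11.5% of all genes), and DESeq2 called 9 lower and 3 higher, beside 9.06% lower and 5.80% higher of all genes. The median was −0.19, beside 0.06 over all genes, and it turned to 0.19 with library size as the only scaling. For the hnRNP class the median was −1.18 and for the PRPF class 1.46, over 17 and 6 genes tested. The number of lower calls was 0 when Nrp1-IP replicate 1 was dropped and 1 when its replicate 3 was dropped. Each library enters 2 of these 3 comparisons, so their values for a gene are not independent.

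Complete separation of the groups was also counted. Between the receptors, the CPM values of all 3 Nrp1-IP libraries lay below all 3 DCC-IP libraries for 8 of the 45 genes (17.8%) and above for 5 (11.1%), beside 10.9% and 15.6% of all genes tested. In DCC-IP against Input, 9 of 47 lay below (19.1%) and 7 above (14.9%), beside 18.1% and 15.2%. In Nrp1-IP against Input, 12 of 49 lay below (24.5%) and 5 above (10.2%), beside 13.8% and 17.7%. The members that entered these counts had to pass the low-count filter, so they are a description of the better counted genes only.

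**Figure D4:**
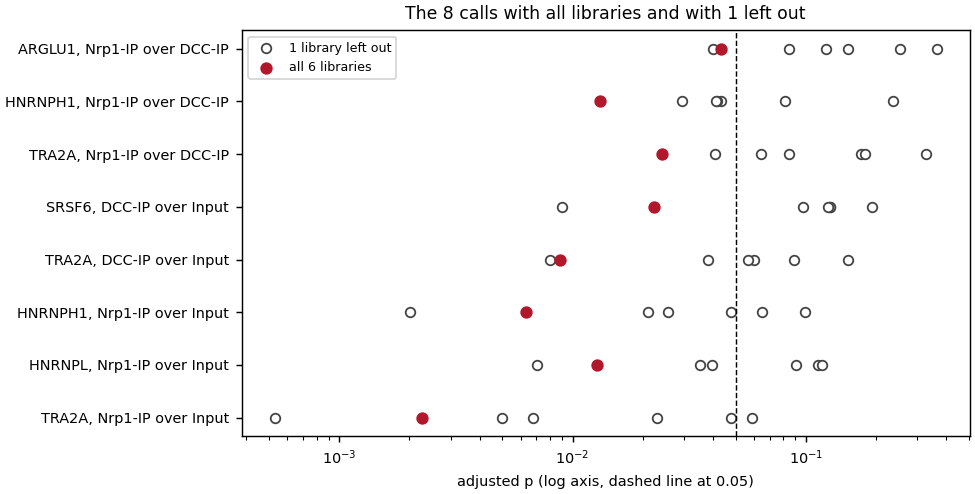
Adjusted p (log axis, edgeR's quasi-likelihood test) of the 8 calls on genes of the set, with all 6 libraries of the comparison (filled) and with 1 library left out in turn (open). The dashed line marks the threshold of 0.05; each call has at least 1 open circle to its right, and TRA2A in Nrp1-IP over Input has 1.

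Ratios of counts within a library do not depend on how libraries are scaled or on MAP1B. The 4 gene pairs used were chosen after their values were seen, genes differ in length, and only the change of a ratio between groups was read. The ratio of HNRNPH1 to SRSF6 counts was 1.41, 1.46 and 1.75 in Input, 3.16, 1.77 and 2.72 in DCC-IP and 0.279, 0.510 and 0.308 in Nrp1-IP. It was highest in DCC-IP and lowest in Nrp1-IP, with no overlap, and differed by 2.81 on the log2 scale between the receptors. The ratio of HNRNPH1 to TRA2A was 9.13, 10.8 and 6.71 in DCC-IP and 6.23, 9.38 and 6.98 in Nrp1-IP, which overlap, and 4.00, 3.68 and 2.59 in Input, below both pulldowns. Between the 2 pulldowns this ratio differed by −0.23 on the log2 scale (exact permutation p = 0.5), less than the spread within DCC-IP.

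Within the SR class, the ratio of SRSF6 to SRSF3 was 32.5, 33.9 and 36.8 in Input, 15.9, 10.6 and 14.7 in Nrp1-IP and 3.02, 4.90 and 4.99 in DCC-IP. The 3 groups did not overlap. HNRNPH2 is a close paralogue of HNRNPH1, and the ratio of HNRNPH1 to HNRNPH2 was 722.5, 513 and 451 in Input, 194, 191 and 195 in DCC-IP and 40.1, 135.5 and 80.2 in Nrp1-IP. HNRNPH2 itself had 141, 238 and 205 counts in Input, 362, 357 and 420 in DCC-IP and 440, 214 and 267 in Nrp1-IP. Reads that fit both paralogues may have been split or set aside by the counting, so the ratio of these 2 genes is uncertain. Of the 12 comparisons of ratios between groups, 11 reached an exact two-sided permutation p of 0.1, which is the smallest that 3 against 3 libraries allow (0.109 after Benjamini-Hochberg adjustment over the 12), so none could pass 0.05. The 12 share genes and libraries, and the pairs were chosen after their values were seen. The 11 therefore only describe groups without overlap, and no share over other gene pairs was computed.

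**Figure D5:**
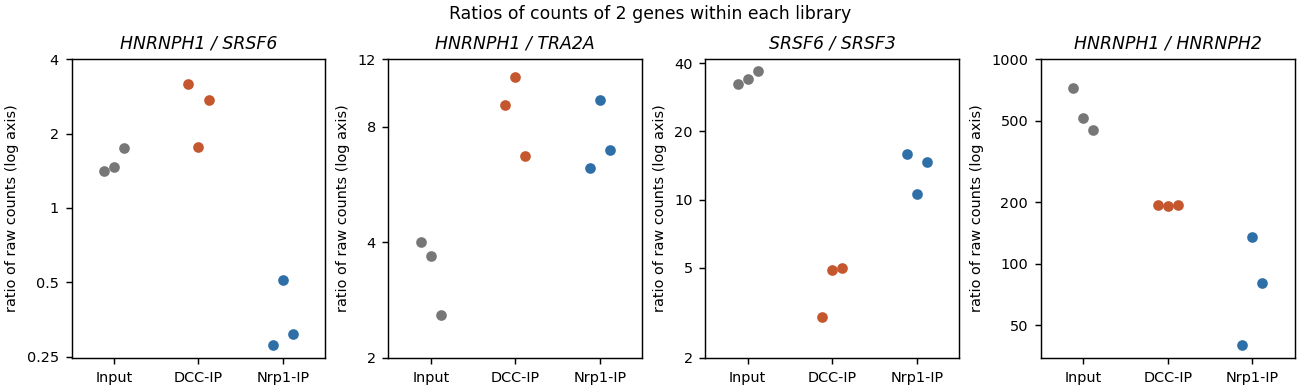
Ratio of raw counts of 2 genes within each library (points, log axis) for 4 gene pairs in Input, DCC-IP and Nrp1-IP. HNRNPH1 over SRSF6 is above 1 in Input and DCC-IP and below 1 in Nrp1-IP, while HNRNPH1 over TRA2A overlaps between the 2 pulldowns.

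Other genes of the splicing pathway, outside the 81, were taken from a list of 145 symbols, of which 142 were in the files. Between the receptors, 83 of them were tested, 1 was lower in Nrp1-IP and 0 were higher, beside the 1.09% lower and 2.56% higher of all genes, and their median log2 fold change was −0.36. The gene was THRAP3, an SR-related protein that works in splicing and mRNA decay, with 44513, 42313 and 27439 counts in Input, 30260, 35061 and 35189 in DCC-IP and 13331, 16679 and 15492 in Nrp1-IP. THRAP3 fell by 1.28 on the log2 scale between the receptors (SE 0.28, adjusted p = 0.0422 in edgeR), a call lost without any 1 of the 6 libraries (0.0608 to 0.441) and with MAP1B removed (0.0554), and by 1.77 in Nrp1-IP against Input (SE 0.27, adjusted p = 0.0173 in edgeR). The latter held without Input replicate 2 or 3 and was lost without each of the other 4 libraries, at 0.0515 to 0.143.

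Against Input, 81 of the listed genes were tested with each pulldown. In DCC-IP, 3 rose and 2 fell, beside 1.46% and 3.52% of all genes, with a median of 0.43. Those that rose were SREK1, an SR-related regulator, SON, a scaffold of nuclear speckles, and RBM39, a U2AF-related protein, and those that fell were PCBP2, a poly(C)-binding protein, and GEMIN6, which helps to load Sm rings on snRNAs. In Nrp1-IP, 3 rose and 3 fell, beside 1.94% and 3.03% of all genes, with a median of −0.02. SREK1, DHX8, a helicase that releases the spliced mRNA, and DDX42, an RNA helicase named here after its values were seen, rose, and PCBP2, THRAP3 and LSM5, a subunit of the Lsm ring, fell.

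Most of these calls were also lost in fits with 1 library left out, some of which called few genes in all. In DCC-IP against Input, 0 and 1 genes were called in all without DCC-IP replicates 1 and 2. In Nrp1-IP against Input, 0, 7 and 7 were called without Nrp1-IP replicates 1, 2 and 3. In DCC-IP, PCBP2 was called in 0 of the 6 fits with 1 library left out (adjusted p of 0.082 to 0.204 in edgeR). GEMIN6 was called only without Input replicate 3, RBM39 only without DCC-IP replicate 3, and SON only when either of those libraries was left out. With MAP1B removed, PCBP2 (adjusted p = 0.0822 in edgeR), GEMIN6 (0.0712) and RBM39 (0.0673) were no longer called. In Nrp1-IP, DHX8 and DDX42 were called in 0 of 6 fits (adjusted p from 0.0539 to 0.208 and from 0.0653 to 0.245 in edgeR), LSM5 only without Input replicate 3, and PCBP2 without any 1 Input library but not without Nrp1-IP replicate 1, 2 or 3 (0.103 to 0.141).

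SREK1 had 92, 96 and 184 counts in Input, 1460, 2211 and 2698 in DCC-IP and 1373, 910 and 1432 in Nrp1-IP. Both pulldowns lay above Input, the opposite side from TRA2A. SREK1 rose by 3.65 on the log2 scale in DCC-IP (SE 0.56, adjusted p = 0.0112 in edgeR) and by 2.84 in Nrp1-IP (SE 0.47, adjusted p = 0.0218 in edgeR). The DCC-IP call held without DCC-IP replicate 3 or Input replicate 3 and was lost without each of the other 4 libraries (0.07 to 0.0975), and the Nrp1-IP call held only without Input replicate 3 and was lost without each of the other 5 (0.0529 to 0.127).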

How the data were processed

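The authors demultiplexed the reads with bcl2fastq, aligned them to hg19 (HISAT2 2.1.0) and assigned them to gene symbols (HTSeq 0.11.0). The deposited values are raw counts, without normalization, in 1 file per library. Neither annotation nor strand setting is given in the sources used here, so reads of overlapping and antisense genes cannot be told apart. The 5 HTSeq summary lines of each library were left out: reads on no gene made up 48.7% to 55.8% and 2.83% to 3.83% aligned to more than 1 place, which bears on genes with near-identical copies. No molecular identifiers are described, so floors cover counting error only.

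From the deposited counts, each comparison was fitted to its own 6 libraries in edgeR 4.0.16 under R 4.3.3, with filterByExpr (minimum count 10), TMM scaling, glmQLFit and glmQLFTest, and Benjamini-Hochberg adjustment over all genes tested. Genes with an adjusted p under 0.05 were called. The standard error was the size of the log2 fold change over the square root of F. The 81 genes were taken by symbol, and the pseudogene rule was applied to hnRNP names only, since SNRNP names end in the same way. The members, the pathway list and the naming rule were chosen with earlier results of these data known. Named were the genes called, HNRNPH1 and HNRNPA2B1, the 3 genes with the most counts and the tested gene with the largest change in each class, and up to 8 called genes of the pathway list; fold changes were printed where called, over 2 standard errors, or called with the replicate block. The values of 1 member and of some marker genes are not reported here.

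Whether same-numbered libraries deviate together from their group means was checked over 7628 genes. For same-numbered libraries the correlations of the deviations were 0.117 to 0.421 for DCC-IP and Input. They were 0.0989 to 0.361 for DCC-IP and Nrp1-IP, and −0.0043 to 0.364 for Nrp1-IP and Input. For DCC-IP and Input libraries of different number they were −0.310 to 0.136. DCC-IP 2 with Input 1 (0.136) thus passed the pair numbered 1 (0.117), and the pair numbered 3 was highest (0.421). The replicate block was fitted in all 3 comparisons and was read as a pairing only for DCC-IP and Input. This pairing comes from the same data that the block then tests, as the labels give only a number. Tested on simulated data, with a log2 change of 3 in 200 genes and the estimated dispersions, the test recovered 22% of them between the receptors (6439 genes), 13% in DCC-IP against Input (6223 genes) and 26.5% in Nrp1-IP against Input (6501 genes), with 8.33%, 7.14% and 7.02% wrong calls. Alternatives covered RLE scaling, library size only, MAP1B removed, no filter, a minimum of 10 counts per library, one fit of all 9 libraries, DESeq2 1.42.0, the replicate block and each library left out. Leaving out the libraries numbered 3, and the ratios, were added after the counts were seen. Tables and figures were made in Python 3.11.15 (pandas 2.3.3, numpy 2.4.6, scipy 1.17.1, matplotlib 3.10.9).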

Additional observations from a re-analysis of the deposited data

How the results depend on the processing

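All called fold changes of the 81 genes kept their direction in every setting run. The replicate block ended none of the 8 calls, which is no support for them. The block comes from these same data and was read as a pairing only for DCC-IP and Input. Between the receptors, the number of genes called higher (0) became 1 with library size only, MAP1B removed, 10 counts in every library, a fit of all 9 libraries or DESeq2, 2 with no filter, and 0 to 1 with 1 library left out. The number called lower (3) became 2 with RLE scaling, MAP1B removed or all 9 libraries in one fit, and 1 with library size only. It became 4 with no filter, 10 counts in every library or DESeq2. It was 0 without the libraries numbered 3, and 0 to 4 with 1 library left out. The replicate block called 0 higher and 4 lower there, SRSF2 being the one added (adjusted p = 0.0142 in edgeR). The median of the tested genes (−0.43) became −0.17 with MAP1B removed or with the block, and −0.54 with 10 counts in every library. It was −0.054 without the libraries numbered 3, and −0.45 to 0.053 with 1 library left out. In DCC-IP against Input, the number called higher (0) became 1 with library size only, all 9 libraries in one fit or DESeq2, and 2 with 10 counts in every library or with the block. The number called lower (2) became 0 with MAP1B removed, 1 with no filter, 4 with all 9 libraries in one fit, 5 with DESeq2, and 0 to 3 with 1 library left out. The block, 10 counts in every library and leaving out the libraries numbered 3 each gave 3. In Nrp1-IP against Input, the number called higher (0) became 1 with no filter or 10 counts in every library, 2 with library size only or with the block, and 3 with DESeq2. The number called lower (3) became 5 with RLE scaling or with the block, 6 with no filter, 8 with 10 counts in every library and 9 with DESeq2. It was 4 without the libraries numbered 3, and 0 to 4 with 1 library left out. The median (−0.19) became 0.19 with library size only, −1.19 with no filter, and −0.81 to −0.36 with 1 library left out. The mean share of counts on the 81 genes became 2.32% in DCC-IP (from 1.23%) and 1.01% in Nrp1-IP (from 0.991%) with MAP1B taken out. The log2 fold change of HNRNPA0 between the receptors ranged from −2.95 to 0.017 with 1 library left out. Over all genes tested, the median between the receptors was −0.27 under TMM, −0.11 under RLE, −0.10 with library size only and −0.02 with MAP1B removed, in DCC-IP against Input it was 0.16, 0.00, 0.48 and 0.33, and in Nrp1-IP against Input 0.06, −0.13, 0.44 and 0.06. The causes of these changes were not tested. Libraries numbered 1 and 2 held 24 or more genes of the set at 0 in each pulldown, so genes under about 10 counts could not be compared at this depth, and in simulations with the estimated dispersions most changes of 3 on the log2 scale were missed, while with low dispersions 93.5% to 97% were recovered.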
